A study of Mus musculus with 82 samples.

Results

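Nascent RNA of mouse embryonic stem (ES) cells was read in single nuclei by scGRO–seq and, by the same chemistry, in nuclei processed in bulk by AGTuC, and the gene-body signal of both was compared gene by gene. The comparison took 55 of the 82 libraries of the series. The 53 scGRO–seq libraries of batches Exp156, Exp160, Exp208, Exp211, Exp236, Exp246, Exp260, Exp260b, Exp263 and Exp264a were summed per batch, which gave 10 replicates, and the 2 AGTuC libraries, both of batch Exp125c, were kept apart. All were made from V6.5 ES cells, a hybrid mouse line, grown on gelatin with fetal bovine serum and leukemia inhibitory factor (LIF). The labels give no treatment, no genotype beyond the line and no age, and as far as they say all groups share the same growth conditions. Whether the batches came from the same stock of the line is not stated. AGTuC disrupts the nuclear membranes of a large pool of nuclei with the detergent sarkosyl during the run-on. In scGRO–seq the run-on is also done on pooled nuclei, but with less sarkosyl, so that they stay whole. Single nuclei are sorted into wells after it. The question addressed was which genes and gene classes single nuclei recover above or below their level in bulk. The 4 inAGTuC libraries of the series, in which nuclei stay intact and are handled together in wells, are given beside some values as a description. They are also used to group genes by level, and they enter no test.

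In a nuclear run-on, RNA polymerase II molecules that are engaged on DNA resume elongation and add labelled nucleotides, so that each read marks where a polymerase stood and on which strand. Polymerases of most active genes pause shortly after the start site, held there by the factors DSIF and NELF, and are released into the gene body by the kinase P-TEFb. Here the labelled nucleotide carries an alkyne at its 3′ position, stops the chain and is joined to a barcoded DNA by click chemistry, so that the read reports the base that was added last.

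The batches differed from the bulk libraries in more than the number of nuclei. Body reads numbered 193051 to 2512551 per batch (median 374170), against 1074225 and 2224241 in AGTuC 1 and AGTuC 2. The 53 libraries drew on 288 well barcodes, every barcode occurring in more than 1 library, and gave 5088 pairs of library and barcode, of which 3726 held 1000 or more reads. Libraries of a batch can hold the same plate, since there are more pairs than nuclei the study describes as sorted, so a pair is not taken here as a nucleus. Molecules found in more than 1 library, 2.52 to 41.3% of the deposited reads of a batch and 0.511% and 0.245% in AGTuC, were left out. Reads were also shorter, with a median of 19 to 58 bases in the batches and of 66 and 65 bases in AGTuC. Exp156 and Exp160 stood apart from the other 8 batches at 1 imprinted locus and on the Y chromosome, and Exp260b held the largest share of reads with a recurrent end, as described further on. Nothing in the labels says that the AGTuC libraries came from separate cultures, so the spread between bulk cultures may go unmeasured. The p-values of single genes below rest mostly on the spread between the scGRO–seq batches, which is taken to hold for AGTuC as well. Since AGTuC comes from 1 batch, batch and assay cannot be told apart.

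Genes were called in both directions between bulk and single nuclei, and the 2 sets were different kinds of genes. The genes higher in scGRO–seq were long, poor in GC and sparsely read, and most had less than 1 count-per-million in bulk. The genes lower in scGRO–seq were short, richer in GC and well read in bulk, and the factors that define the pluripotent state were among them. Gene bodies were the annotated spans with 500 bp taken off each end, values are counts-per-million of the body reads of the replicate (CPM), and a gene was called when limma's moderated test with Benjamini–Hochberg adjustment gave an adjusted p under 0.05 and the change was at least 2-fold. Of 19344 genes tested, 5152 (26.6%) were higher and 4138 (21.4%) were lower in scGRO–seq. For 5742 genes (29.7%) all 10 batches lay on the same side of both AGTuC values, and this held for 3204 of the lower genes but for only 1485 of the higher ones. Of the calls 55.5% were higher, and with median-ratio size factors in place of the total of body reads 71.6% were, since that scaling moved the median log2 difference of all genes from −0.08 to 0.32. With AGTuC thinned to the median depth of the batches 1702 genes were higher and 3097 lower. Leaving out a bulk library, which changes both depth and the number of bulk replicates, gave 3630 higher and 3276 lower genes without AGTuC 1 and 1460 and 2397 without AGTuC 2, the deeper one.

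The higher and lower genes were read at very different levels. The higher genes had a median body of 33.1 kb and 42.9% GC, a median level of 8.73 CPM in scGRO–seq and of 0.45 CPM in AGTuC. The lower genes had a median body of 10.7 kb and 49.4% GC, and a median of 15.8 CPM in scGRO–seq and 46 CPM in AGTuC. Over all genes tested these medians were 20.9 kb, 45.2% GC, 16.8 CPM and 17.4 CPM. In the inAGTuC libraries the median level of the higher genes was 9.15 CPM and that of the lower genes 19.4 CPM, in both cases nearer to scGRO–seq than to AGTuC.

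Many of the higher genes had no bulk level to speak of, and many were read on both strands. Of the 5152 higher genes, 3373 (65.5%) had an AGTuC mean under 1 CPM, so that they entered the test only through scGRO–seq, and 2086 had no AGTuC read. Set against a floor of 3 reads over both AGTuC libraries (0.91 CPM), 1672 of those 2086 genes were at least 2-fold and 945 at least 4-fold higher, whatever their fitted change. Antisense reads of the same bodies had a median of 7.27 CPM in scGRO–seq, close to the 8.73 CPM on the sense strand, and a median of 0.225 CPM in AGTuC. The sense level was at least 3 times the antisense level in 777 (15.1%) of the higher genes, in 1525 (36.9%) of the lower genes and in 32.9% of all genes tested. Summed over the higher genes, sense reads were 2.05 times the antisense reads in both AGTuC libraries and 1.57 to 5.34 times in the batches, with the highest ratio in Exp156. The higher genes held 18.9 to 35.6% of the body counts of a batch and 4.37% and 4.5% of those of AGTuC, while the lower genes held 8.53 to 17.5% and 32.2% and 31.6%. The part of antisense reads in these calls was measured only by subtracting them, after which 4633 genes were higher and 3457 lower, 2933 and 2771 of them also in the calls above.

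From the shortest class of gene bodies to the longest, the share of lower genes fell and the median difference rose, while the share of higher genes was highest over 200 kb. Of 220 genes with a body under 1 kb, 52.7% were lower and 8.64% higher, with a median log2 difference of −1.52. Of 5056 genes of 20 to 50 kb, 16.3% were lower and 25.6% higher, with a median of −0.14, close to the −0.08 of all genes. Of 969 genes over 200 kb, 71.3% were higher and 0.619% lower, with a median of 2.50. In between, the median rose from −1.13 at 1 to 2 kb through −0.72, −0.50 and −0.44 up to 20 kb, and from 0.18 at 50 to 100 kb to 0.66 at 100 to 200 kb. With antisense reads subtracted this order was lost below 200 kb, with medians of −0.84, −0.14, 0.30, 0.02, −0.32, −0.22, −0.02 and 0.26 from the shortest class on, and 536 genes of 2 to 5 kb were then higher and 360 lower. Without AGTuC 2, 322 genes of 20 to 50 kb were higher in place of 1294, and the share of higher genes did not rise with length up to 10 kb, with 8 higher genes at 1 to 2 kb, 16 at 2 to 5 kb and 22 at 5 to 10 kb.

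**Figure D1:**
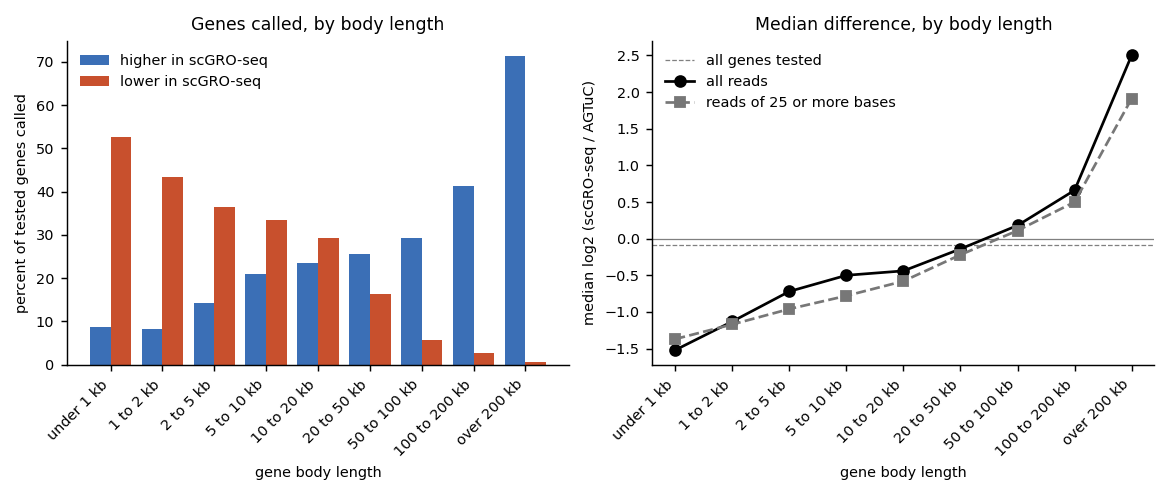
Genes called by gene body length. The left panel gives the percent of tested genes in each length class that were higher (blue) or lower (orange) in scGRO–seq, and the right panel the median log2 ratio of scGRO–seq to AGTuC with all reads (black circles) and with reads of 25 or more bases (grey squares). The dashed line marks the median of all genes tested, −0.08. The share of higher genes goes from 8.64% under 1 kb to 71.3% over 200 kb.

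Genes over 200 kb took a share of the body counts that did not overlap between the assays. That share was 15.3% in the lowest batch, 20.8% at the median and 24.6% in the highest, against 10.2% in each AGTuC library. Genes of 10 to 20 kb took 7.59 to 9.87% in the batches against 13.8% and 13.7%. The share of genes under 1 kb overlapped between the assays, and that of genes of 1 to 2 kb was higher in every batch, at 0.988 to 3.8% against 0.911% and 0.943%, although 229 of its 529 tested genes were called lower and 44 higher. With reads of 25 or more bases the median of the genes over 200 kb was 1.91 and 624 of them were higher. Without AGTuC 2 the same class had 465 higher and 3 lower, and with antisense reads subtracted 241 higher and 22 lower, at a median of 1.39. Without Exp156 and Exp160 it had 702 higher and 8 lower.

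Among well-read genes the classes did not follow length throughout, with the level taken from the inAGTuC libraries, which neither group of the comparison contains. That level is not independent of the comparison. The inAGTuC libraries share the run-on in intact nuclei with scGRO–seq, and some of them are of batch Exp208. Small RNA genes held 1.03 to 7.58% of their body reads, against 0.23% and 0.246% in AGTuC. In the highest quintile of inAGTuC level, above 71.3 CPM, 456 of 725 genes over 200 kb were higher with a median log2 difference of 1.62, and 161 with antisense reads subtracted. In the same quintile, 240 of 943 genes of 20 to 50 kb were lower and 18 higher, with a median of −0.61. Only 42 genes of 2 to 5 kb reached that quintile, and 27 of these were higher and 5 lower, with a median of 1.61, as high as that of the genes over 200 kb. With reads on small RNA genes left out, 2 of them were higher and 7 lower, with a median of 0.17. In the lowest quintile, up to 4.83 CPM, 1709 of 3873 genes were higher and 554 lower, with a median of 1.98 that became 0.92 when genes without an AGTuC read were set at the floor. With AGTuC thinned to the median depth of the batches only 35 of the genes in the lowest quintile were higher and 360 were lower, at a median of 0.59. Without AGTuC 2 the median of this quintile was 1.86.

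The calls also went with GC content and gene type, which were not separated from length. From the quintile of genes with the lowest body GC to the highest, the median log2 difference went from 0.77 through 0.26, 0.02 and −0.44 to −0.98, with 1656 higher and 205 lower genes in the first quintile and 398 and 1724 in the last. Without AGTuC 2 these were 558 and 78 in the first and 44 and 1052 in the last. Long non-coding RNA genes had 1157 higher and 382 lower of 2348, with a median of 2.10. The median was 1.19 with genes at 0 in AGTuC set at the floor, and 1.91 without AGTuC 2. Their median level in AGTuC was 0.915 CPM, so that most of them entered the test only through scGRO–seq. With AGTuC thinned to the median depth of the batches more of them were lower than higher, while the median was 0.79. Genes with 1 exon went the other way, with 29 higher and 149 lower of 318 and a median of −1.34, and 92 lower without AGTuC 2. Protein-coding genes had 3994 higher and 3756 lower of 16992, with a median of −0.20, which is 23.5% and 22.1%, near the 26.6% and 21.4% of all genes tested. The share of reads on exons did not separate the assays, at 10.9 to 17.9% in the batches and 15.2% and 15.5% in AGTuC (two-sided exact permutation test over 66 splits, p = 0.561).

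AGTuC held more signal just inside the gene start than scGRO–seq. Along 2258 genes with bodies over 100 kb, read density between 0.5 and 1 kb from the start was 5.94 and 6.28 times the density at 20 to 100 kb in AGTuC 1 and AGTuC 2, and 1.26 to 2.16 times in the batches, with a median of 2.0. At 1 to 2 kb the ratios were 2.24 and 2.27 against 1.23 to 1.67, and at 2 to 5 kb 1.42 in both against 1.14 to 1.37. Beyond 5 kb the assays overlapped. The first 5 kb of bodies over 50 kb accordingly held 8.14% and 8.25% of their body reads in AGTuC and 4.52 to 5.55% in the batches, lower in 10 of 10 batches (exact permutation p = 0.0152, the smallest that 66 splits allow, and 0.0606 after adjustment over 12 measures). The 500 bp at the start, which the bodies leave out, held 20.1% and 21.8% of start and body reads in AGTuC and 2.2 to 5.0% in the batches. The inAGTuC libraries, whose nuclei stay intact but are not single, were near the batches. Their first 5 kb held 4.97 to 5.38% and their 500 bp at the start 2.89 to 5.29%.

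**Figure D2:**
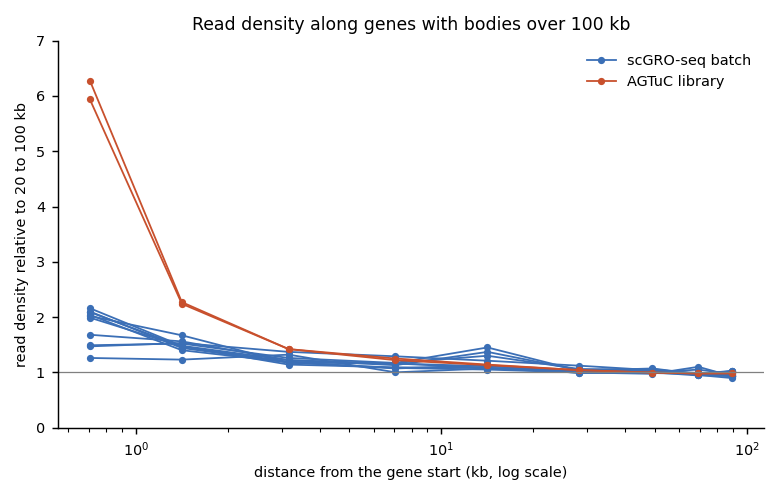
Read density along 2258 genes with bodies over 100 kb, relative to the density at 20 to 100 kb, against distance from the gene start in kb on a log scale. Each blue line is a scGRO–seq batch and each orange line an AGTuC library. The bulk libraries stand at 5.94 and 6.28 between 0.5 and 1 kb and the batches at 1.26 to 2.16, and the lines meet beyond 5 kb.

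Most of the factors that hold ES cells in the pluripotent state were lower in scGRO–seq than in AGTuC. Of 27 tested pluripotency factors 21 were lower and 0 higher, with a median log2 difference of −1.54, against 21.4% lower and a median of −0.08 over all genes. Their summed level was 1517 CPM in the lowest batch, 1890 at the median and 3631 in the highest, against 5697 and 5576 CPM in AGTuC, with no overlap. Exp156 and Exp160, which stood apart elsewhere, were nearest to AGTuC at 3631 and 2606 CPM, with 1517 to 2225 CPM in the other batches. Most of these genes are short, and when 2 kb instead of 500 bp were taken off the 5′ end 14 of 25 were lower. The same number, 14 of 27, was lower with median-ratio size factors and when each position and strand was counted only one time per library. In bulk samples, fewer cells of a type and less RNA per cell cannot be told apart.

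Klf4, the Krüppel-like factor that cooperates with Oct4 and Sox2 (chr4:55527137-55532475, minus strand, GRCm38), had 151 and 146 CPM in AGTuC. In the batches it had 2.45 CPM at the lowest, 16.6 at the median and 62.2 at the highest, a log2 difference of −3.43 ± 0.41 (SE, adjusted p = 6.1e-06). Its relative Klf2 (chr8:72319062-72321654, plus strand) had 136 and 137 CPM in bulk and 6.39, 13.4 and 23.6 CPM in the lowest, median and highest batch, a difference of −3.31 ± 0.28 (adjusted p = 2.5e-07). Every batch lay below both bulk libraries for both genes, with 92 Klf4 reads from 91 pairs of library and barcode in all. With the 2 kb cut Klf4 kept a difference of −3.03, and that of Klf2 was −0.85 with an adjusted p of 0.25. That cut leaves very little of the short Klf2 gene, so its value cannot be set against that of Klf4.

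Sox2, the partner of Oct4 on DNA (chr3:34649995-34652461, plus strand, a single exon), had 147 CPM in each bulk library and 7.87, 21.8 and 46.6 CPM in the lowest, median and highest batch, a log2 difference of −2.83 ± 0.29. Nanog, a homeodomain factor (chr6:122707489-122714633, plus strand), had 126 and 112 CPM in bulk and 14.8, 25.9 and 72.5 CPM in the batches, a difference of −2.10 ± 0.28. Pou5f1, which encodes Oct4 (chr17:35506032-35510777, plus strand), had 86.6 and 73.3 CPM in bulk and 8.83, 29.2 and 38.4 CPM in the batches, a difference of −1.60 ± 0.30. In all of these the groups did not overlap, and the adjusted p-values were between 1.6e-06 and 0.00042. Esrrb, an orphan nuclear receptor with a long gene (chr12:86361117-86521628, plus strand), fell too, from 1262 and 1214 CPM to between 301 and 886 CPM with a median of 390, a difference of −1.54 ± 0.22.

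The other called pluripotency factors fell by 1.05 to 2.98 on the log2 scale, with Prdm14, a repressor of differentiation genes, at the small end and the T-box factor Tbx3 at the large end. Prdm14, Dppa2 and Tcl1 were among those that overlapped between the groups. The exceptions were few. Zfp42, also known as Rex1, had 219 and 235 CPM in AGTuC against 58.7 to 186 CPM, a log2 difference of −0.90 that passed the test (adjusted p = 0.0063) but not the 2-fold limit. Stat3, the transcription factor that LIF signalling activates, had 160 and 177 CPM against 80.6 to 181 CPM and a difference of −0.50 (adjusted p = 0.073). Dppa3, Dppa4, Nr0b1 and Rex2 had differences of 0.79, 0.20, −0.18 and 1.28 and did not pass, and Dppa5a was too weakly read to be tested.

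**Figure D3:**
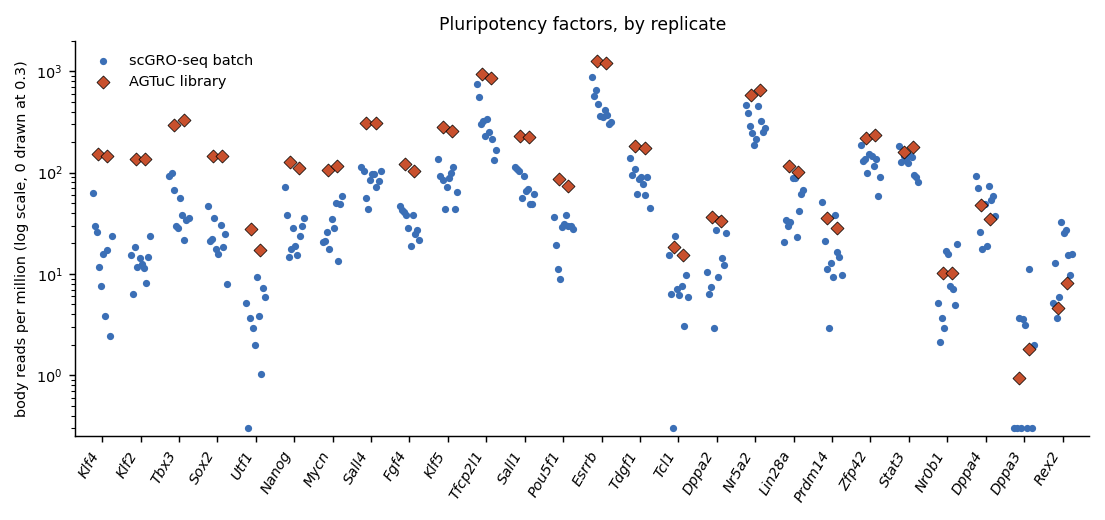
Counts-per-million (CPM) of 26 tested pluripotency factors, on a log scale, in each of the 10 scGRO–seq batches (blue points) and the 2 AGTuC libraries (orange diamonds), ordered by log2 difference from Klf4 (−3.43) to Rex2 (1.28). Values of 0 are drawn at 0.3. The bulk libraries lie above every batch for Klf4, Klf2, Sox2, Nanog, Pou5f1 and Esrrb.

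The 10 genes that fell most, among those with a mean of at least 20 CPM and no overlap, changed by −5.06 to −3.97 on the log2 scale (adjusted p 4.9e-08 to 7.8e-06). Jund, a subunit of the AP-1 transcription factor (chr8:70697739-70700616, plus strand, a single exon), had 246 and 259 CPM in AGTuC and 2.45, 9.40 and 19.2 CPM in the lowest, median and highest batch, a difference of −5.0 ± 0.34. Socs3, the feedback inhibitor of LIF and Stat3 signalling (chr11:117966079-117969366, minus strand), had 185 and 152 CPM in bulk and 2.94, 10.7 and 36.3 CPM in the batches, a difference of −3.97 ± 0.37. Gzmm, which encodes granzyme M, a protease of cytotoxic lymphocytes (chr10:79689020-79695261, plus strand), had 121 and 113 CPM in bulk and 0.0, 1.54 and 9.39 CPM in the batches, a difference of −5.06 ± 0.42. The others were the long non-coding 9330020H09Rik, the histone gene H2bc4, Fam83e, the translation initiation factor gene Eif1, the RNase gene Zc3h12a, Irf2bpl and Tpgs1, a subunit of the enzyme that polyglutamylates tubulin. Their bodies were 1.15 to 8.47 kb long, and every batch lay below both bulk libraries for each of them. They were low in the intact nuclei of inAGTuC as well, with a mean of 28 CPM for Jund, 21.5 for Socs3 and 4.83 for Gzmm.

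In the start region most of these genes were lower in every batch as well. In the first 500 bp Fam83e had 94.0 and 87.2 CPM in AGTuC and 0.0 to 4.26 in the batches, and Eif1 83.8 and 78.7 against 0.0 to 20.7. The exceptions were Jund, with 0.0 and 0.45 in AGTuC and at most 0.398 in the batches, and 9330020H09Rik, with 0.931 and 0.899 against 0.0 to 3.93.

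Promoters of the higher genes held the letters CG less often than those of the other genes tested, while lower genes and genes not called were alike in the median. The 250 bases before the gene start held at least 10 CG in 73.6% of the 3267 lower genes with a promoter sequence in RefSeq and in 29.4% of 3941 higher genes, against 67.8% of the 7941 genes not called and 59.1% of all 15149 tested genes with a sequence (78.3% of the genes tested). The median was 15 CG in the lower genes and in those not called, 4 in the higher genes and 12 in all. Since 65.5% of the higher genes had under 1 CPM in bulk, the higher genes are also those hardly read there, and the part of that level in the CG counts was not tested. CG reads the same on both strands. The promoters of Klf4 and Socs3, which fell, and of Thsd7b, which rose, are given as examples 5′ to 3′ from RefSeq on GRCm38, with every CG in capitals: Klf4 at chr4:55532476-55532725 on the minus strand with 32 CG, Socs3 at chr11:117969367-117969616 on the minus strand with 26 CG, and Thsd7b at chr1:129273054-129273303 on the plus strand with 3 CG.
Klf4: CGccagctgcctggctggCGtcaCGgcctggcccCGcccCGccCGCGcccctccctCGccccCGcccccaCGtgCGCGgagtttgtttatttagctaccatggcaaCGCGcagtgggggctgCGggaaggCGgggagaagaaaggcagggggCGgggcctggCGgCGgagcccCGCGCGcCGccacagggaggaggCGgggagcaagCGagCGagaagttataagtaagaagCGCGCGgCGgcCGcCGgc
Socs3: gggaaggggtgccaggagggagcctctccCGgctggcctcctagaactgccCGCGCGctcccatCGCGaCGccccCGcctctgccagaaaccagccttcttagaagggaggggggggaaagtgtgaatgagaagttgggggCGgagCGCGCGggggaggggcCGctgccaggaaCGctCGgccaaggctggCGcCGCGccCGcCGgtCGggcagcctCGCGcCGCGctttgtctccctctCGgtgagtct
Thsd7b: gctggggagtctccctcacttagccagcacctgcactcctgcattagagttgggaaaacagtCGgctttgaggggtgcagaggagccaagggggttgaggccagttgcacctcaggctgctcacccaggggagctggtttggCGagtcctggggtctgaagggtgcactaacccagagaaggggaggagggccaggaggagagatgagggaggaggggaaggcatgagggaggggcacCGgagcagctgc
Jund, which fell most but for Gzmm among the genes named above, had 3 CG in its window. The first 500 bp of Jund held only 0.0 and 0.45 CPM in AGTuC. Whether its annotated start is the one in use was not tested, so its window may not be its promoter.

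Genes of glycolysis, of the respiratory chain and of actin and tubulin were called lower more often than the 21.4% of all genes tested, and hardly any was higher (26.6% of all genes). Of 17 glycolysis genes 13 were lower and 0 higher (median −1.22), although only 7 were lower with median-ratio size factors. Gapdh, a central enzyme of glycolysis, had 304 and 271 CPM in AGTuC and 28.7 to 82.9 CPM in the batches with a median of 39, a difference of −2.81 ± 0.23 (adjusted p = 1.8e-07). Slc2a1, the glucose transporter, had 981 and 898 CPM against 113 to 606 CPM, a difference of −2.22 ± 0.30. For both the groups did not overlap. Nuclear-encoded genes of the respiratory chain had 40 lower and 1 higher of 78 (median −1.15), or 17 lower without AGTuC 2 and 11 when limma was run on log2(CPM + 1), and Cycs, which encodes cytochrome c, fell from 20.5 and 30.1 CPM to at most 2.94 CPM. Actin and tubulin genes had 9 lower and 0 higher of 13 (median −1.45). With the 2 kb cut 2 of the 9 that could still be tested were lower (median −0.31), near the 18.2% of all genes under that setting.

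Stress and signalling lists had more lower than higher members, against 26.6% higher and 21.4% lower over all genes tested. Immediate early genes, which serum factors induce within minutes, had 14 lower and 2 higher of 29 (median −0.91), and 9 lower without AGTuC 2 and 6 of 23 with the 2 kb cut. Ier2, with a body of 0.522 kb, had 99.6 and 73.7 CPM in AGTuC and 0.0 to 10.4 CPM in the batches, a difference of −4.16 ± 0.42 (adjusted p = 1.4e-06). Heat shock and chaperone genes had 9 lower and 0 higher of 18 (median −0.89), but their summed level overlapped between the groups, at 1207 to 3476 CPM against 2359 and 2417 CPM. The most-read members lay on the other side. Hspa8, a constitutive chaperone with a body of 2.93 kb that hosts small nucleolar RNAs, had 171 and 209 CPM in AGTuC and 225 to 1601 CPM in the batches, with no overlap and a log2 difference of 1.09 ± 0.50 (adjusted p = 0.071), or −0.60 without reads on small RNA genes. Hspa9, the chaperone of mitochondria, had a difference of 0.95 that passed the test (adjusted p = 0.034) but not the 2-fold limit. Genes of the integrated stress response and serine synthesis had 8 lower and 1 higher of 19 (median −0.92), among them Atf4, the central transcription factor of that response, which had 105 and 125 CPM in bulk and 9.23 to 34.1 CPM in the batches, a difference of −2.93 ± 0.30. Groups did not overlap for Ier2 and Atf4.

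Cell cycle genes had 14 lower and 1 higher of 25 (median −1.09), against 26.6% higher and 21.4% lower over all genes tested. Aurka, a mitotic kinase, had 128 and 134 CPM in AGTuC and 15.3 to 41.4 CPM in the batches, a difference of −2.15 ± 0.24. Mki67, which encodes the proliferation marker Ki-67, was the higher one, at 130 and 126 CPM against a median of 266 CPM and a highest batch of 335 CPM, a difference of 1.03 ± 0.25 (adjusted p = 0.0027).

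Lists of the transcription and protein turnover machineries had few higher genes, and shares of lower genes on both sides of the 21.4% of all genes tested, of which 26.6% were higher. Chromatin regulators had 2 lower and 0 higher of 25 (median −0.36), elongation and pausing factors of polymerase II had 5 lower and 1 higher of 29 (median −0.59), and proteasome subunits had 9 lower and 1 higher of 39 (median −0.64), that is 8%, 17.2% and 23.1% lower. Mediator subunits had 12 lower and 2 higher of 33 (median −0.72), and zinc finger genes named Zfp 122 lower and 22 higher of 384 (median −0.63), 36.4% and 31.8% lower. Without AGTuC 2 the lower genes numbered 3 of the elongation factors, 4 of the proteasome, 5 of Mediator and 68 of the Zfp genes. Among the elongation factors Hexim1, the inhibitor of P-TEFb, fell from 41 and 34.6 CPM to 0.0 to 15.3 CPM, a difference of −3.19 ± 0.45, and Cdk9, the kinase of P-TEFb, from 63.3 and 67.0 CPM to 9.23 to 41.4 CPM, a difference of −1.87 ± 0.31. Mllt3, a subunit of the super elongation complex with a body of 262 kb, rose from 28.9 and 28.3 CPM to 62.2 to 178 CPM, a difference of 2.19 ± 0.32 (adjusted p = 5.6e-05).

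Supt5, the large subunit of DSIF, gave a value that 1 batch decided. It had 158 and 142 CPM in AGTuC and 67.7, 152 and 3326 CPM in the lowest, median and highest batch, the highest being Exp260b, and 42.6% of its scGRO–seq reads lay at a single position. Its log2 difference was 0.54 ± 0.80 (adjusted p = 0.58) and −0.06 without Exp260b.

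The genes that rose most had almost no read in bulk, and most of them were long. They were taken by the same rule as the lower ones, 10 in all. Rian (chr12:109603945-109661716, plus strand), a maternally expressed long non-coding RNA that hosts small nucleolar RNAs, had no read in either AGTuC library and 19.2, 978 and 3559 CPM in the lowest, median and highest batch. Its mean was at least 1168-fold higher than the floor of 3 reads over both AGTuC libraries. Meg3 (chr12:109540996-109571729, plus strand), its neighbour at the same imprinted locus, had no AGTuC read and 5.18, 247 and 475 CPM in the batches, at least 251-fold higher. Gria1, a glutamate receptor subunit (chr11:57011618-57330244, plus strand), had none either and 25.9, 75.6 and 359 CPM, at least 116-fold higher. All batches held reads of these genes, and in the intact nuclei of inAGTuC their means were 1282, 293 and 92.8 CPM.

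The other genes of that set had 1 to 3 AGTuC reads, so that only a ratio of CPM over reads pooled from all batches, with its 95% counting interval, can be given. Thsd7b, a transmembrane protein with thrombospondin repeats (chr1:129273304-130219278, plus strand), had 776 reads from 637 pairs of library and barcode against 2 reads in bulk, 41.4, 110 and 277 CPM in the lowest, median and highest batch, and a ratio of CPM of 205 (56.4 to 1692). On the antisense strand of the same body the batches had a mean of 176 CPM, more than the sense mean of 136 CPM, and AGTuC 2.28 CPM. The antisense mean was also near the sense mean for Gria1 (77.6 beside 106 CPM), Sorcs3 (103 beside 126), Marchf1 (105 beside 130) and Spon1 (98.5 beside 126), with 15.6 CPM for Marchf1 and 55.2 CPM for Spon1 in AGTuC. For Dcc, the netrin receptor, the ratio was 983 (176 to 38837), for the sorting receptor gene Sorcs3 396 (70.8 to 15660), and for Ntf3, which encodes neurotrophin 3, 414 (142 to 2009). Exp260b gave 1060 of the 1864 Dcc reads and 1296 of the 2356 Ntf3 reads, and without it these ratios were 502 and 221. For the ubiquitin ligase gene Marchf1 it was 191 (52.7 to 1581), for the matrix protein gene Spon1 197 (54.2 to 1627) and for the LIM-domain cofactor gene Ldb2 336 (60.2 to 13306). The intervals cover counting error only. Apart from Meg3, Rian and Ntf3, the bodies of this set were 276 to 1096 kb long.

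In some of these genes single positions held much of the signal. In Ntf3 82.9% of the scGRO–seq reads, 1952 reads from 969 pairs of library and barcode in 6 batches, ended at chr6:126131717 on the minus strand, in an intron, with a median read length of 17 bases, and 1154 of them were from Exp260b. In Dcc 43.2% ended at 1 intronic position, 785 of 806 reads in Exp260b. In Ldb2 the most-read position held 13.5% of the reads and in Rian 6.49%, whereas in Thsd7b it held 1.93% and in Meg3 0.475%. The Rian position lay 1 base from the 3′ end of an annotated small RNA, and AGTuC had no read at any of these positions. The sequences around them on the RNA strand are shown 5′ to 3′ from the GRCm38 genome. Capitals mark the 6 genome bases up to the aligned read end, which need not match the bases of the reads. The windows are Ntf3 at chr6:126131702-126131747 (minus strand), Ldb2 at chr5:44604960-44605005 (minus strand), Spon1 at chr7:114003053-114003098 (plus strand) and Rian at chr12:109649659-109649704 (plus strand).
Ntf3: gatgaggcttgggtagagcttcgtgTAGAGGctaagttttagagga
Ldb2: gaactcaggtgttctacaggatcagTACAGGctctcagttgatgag
Spon1: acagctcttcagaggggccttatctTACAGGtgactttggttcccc
Rian: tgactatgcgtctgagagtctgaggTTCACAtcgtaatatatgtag

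The letters TACAGG at the read end, seen above in Ldb2 and Spon1, are also those with which the azide adaptor of scGRO–seq starts according to the study's methods, so that such a read need not end where an RNA ended. The end letters counted here are those of the genome at the aligned read end, not of the reads themselves. Reads with other letters than the genome there were not told apart. The part of the adaptor in these reads was not tested. These letters were the most frequent last 6 bases in 6 of the 10 batches, from 1.53% of reads in Exp264a to 20.3% in Exp260b. Ends in ACAGG made up 23% of all reads in Exp260b, 13.5% in Exp263, 12% in Exp260, 5.17% in Exp246, 2.60% in Exp236 and 2.45% in Exp264a. They made up 0.137 to 0.191% in the other 4 batches and 0.0196% and 0.0278% in AGTuC. Such reads had a median length of 18 bases in Exp260b and of 41 bases in Exp264a, and reads under 25 bases made up 1.37 to 66% of the batches and 0.752% and 0.826% of AGTuC. Leaving these ends out gave 5242 higher and 4041 lower genes, and keeping only reads of 25 or more bases gave 3248 and 3974.

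**Figure D4:**
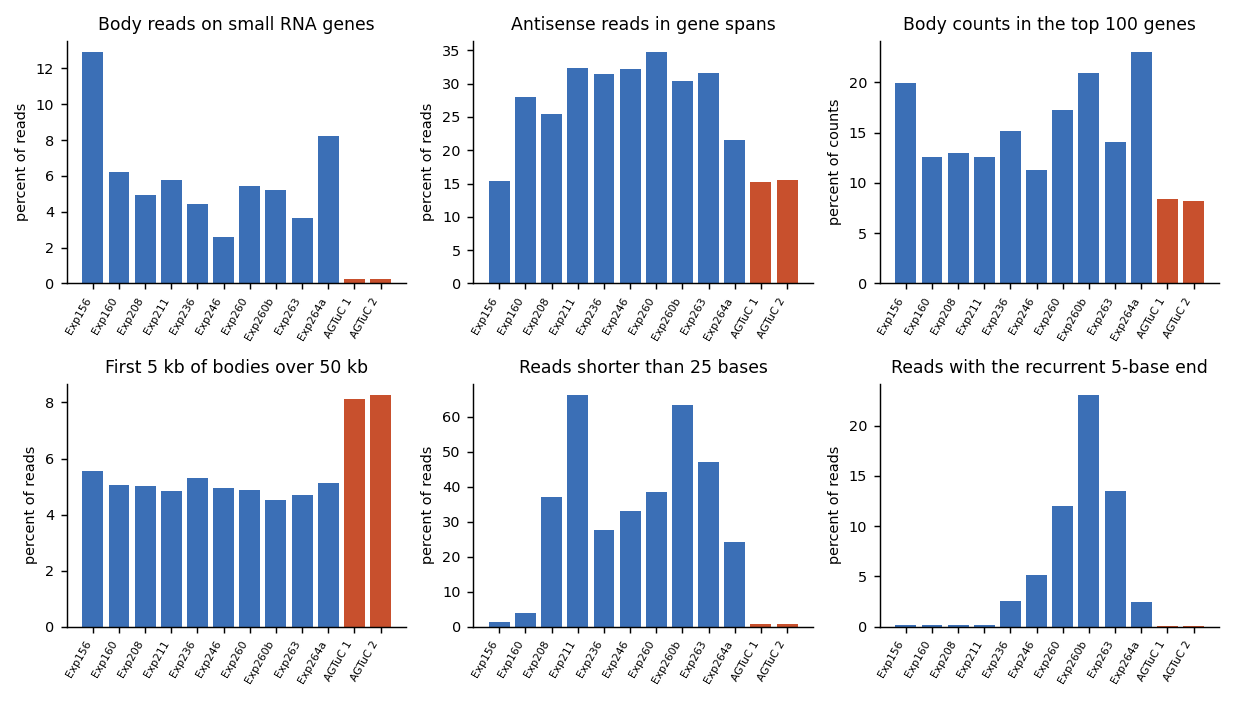
Measures of each of the 10 scGRO–seq batches (blue) and the 2 AGTuC libraries (orange), all in percent: body reads on small RNA genes, antisense reads in gene spans, body counts in the 100 most-read genes, reads in the first 5 kb of bodies over 50 kb, reads under 25 bases and reads that end in ACAGG. Small RNA genes hold 2.59 to 12.9% in the batches and 0.23% and 0.246% in bulk, and ACAGG ends reach 23% in Exp260b.

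Of the genes that host small nucleolar RNAs, more were higher than lower. Annotated small RNA genes held 2.59 to 12.9% of the body reads of the batches with a median of 5.33%, against 0.23% and 0.246% in AGTuC, higher in 10 of 10 batches (exact permutation p = 0.0303, adjusted p = 0.0727). Hosts of small nucleolar RNAs had 122 higher and 20 lower of 302 (median 0.62), against 26.6% higher and 21.4% lower over all genes tested. Once reads on small RNA genes were left out 58 were higher and 26 lower, and without AGTuC 2 58 and 7. The wider class of 1017 hosts of microRNAs or small nucleolar RNAs was near the background, with 28.2% higher and 18.2% lower (median 0.02). Gas5, a host gene whose spliced RNA is short-lived (chr1:161034601-161038539, plus strand), had 798 and 790 CPM in AGTuC and 4091, 9777 and 21280 CPM in the lowest, median and highest batch, a log2 difference of 3.65 ± 0.48 (adjusted p = 1.9e-05).

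Ribosomal protein genes were called in both directions. Of 78 cytosolic ribosomal protein genes 48 were lower and 24 higher, with a median of −2.05, against 26.6% higher and 21.4% lower over all genes tested. Without AGTuC 2 46 were lower and 13 higher. Rps15, of the small subunit, had 69.8 and 70.6 CPM in AGTuC and 0.0 to 14.9 CPM in the batches with a median of 4.16, a difference of −4.06 ± 0.54 (adjusted p = 2e-05). Rpl13a, a snoRNA host of the large subunit, had 250 and 275 CPM in bulk and 1713, 3811 and 11490 CPM in the lowest, median and highest batch, a difference of 3.82 ± 0.58 (adjusted p = 6.6e-05). The summed level of the 78 genes was higher in every batch, at 13722 to 53727 CPM against 9125 and 9018 CPM in AGTuC. Without reads on small RNA genes 0 of the 78 were higher and 50 lower. Nucleolar genes of ribosome biogenesis had 9 lower and 3 higher of 25, with 0 higher without small RNA reads and 5 lower without AGTuC 2. Ubtf, which organizes ribosomal DNA transcription, fell from 418 and 396 CPM to 49.2 to 130 CPM, a difference of −2.38 ± 0.25, while Nop56, a snoRNA host and core protein of box C/D particles, rose from 245 and 227 CPM to 1033 to 7320 CPM, a difference of 3.27 ± 0.54. The summed level of the nucleolar list was also higher in every batch, at 5589 to 14775 CPM against 4828 and 4765 CPM in AGTuC.

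Regulators of later lineages were mostly at the edge of detection in bulk, with an AGTuC mean under 1 CPM for 24 of the 34 tested, which thus entered the test only through scGRO–seq. Lineage regulators had 23 higher and 2 lower of 34 tested (median 2.39, or 1.77 with genes at 0 at the floor), against 26.6% higher and 21.4% lower over all genes tested, but only 4 were higher without AGTuC 2 and 10 without AGTuC 1. Their summed level was 124 to 452 CPM in the batches with a median of 313, against 115 and 143 CPM in AGTuC, and the groups overlapped. Their sense reads were 1.05 times the antisense reads in scGRO–seq and 3.08 times in AGTuC. Pax3, a neural crest regulator, had no AGTuC read and 10.4, 21.3 and 37.1 CPM in the lowest, median and highest batch, at least 23-fold higher, with a mean antisense level of 22 CPM beside a sense mean of 20.9 CPM.

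The lower lineage regulators were the neighbouring genes Olig2 and Olig1. Olig2, an oligodendrocyte and motor neuron factor with a body of 2.13 kb, had 36.3 and 45.4 CPM in AGTuC and 0.0, 0.712 and 15.5 CPM in the lowest, median and highest batch, a difference of −4.09 ± 0.58 (adjusted p = 3.9e-05). Olig1, with a body of 1.17 kb, had 21.4 and 27 CPM against 0.0 to 8.83 CPM, a difference of −3.67 ± 0.50 (adjusted p = 2.8e-05). For both the groups did not overlap.

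Most of the higher calls among markers of other cell types were lost with AGTuC 2 left out, as were most of those over all genes. The counts of the main fit stand beside 26.6% higher and 21.4% lower over all genes tested. Fibroblast markers had 8 higher and 0 lower of 17 (median 1.96, or 1.59 with genes at 0 at the floor), 2 higher without AGTuC 2, and a summed level of 622 to 1677 CPM against 870 and 932 CPM. An AGTuC mean under 1 CPM was found for 9 of these 17 and for 5 of the 10 trophoblast markers tested, which thus entered the test only through scGRO–seq. Trophoblast markers had 4 higher and 1 lower of 10, neural markers 4 and 2 of 8, primitive endoderm markers 2 and 1 of 15, and formative and primed markers 5 and 3 of 13. Without AGTuC 2 the higher ones numbered 1, 2, 0 and 0 in these lists. The formative and primed list summed to 290 to 456 CPM in Exp156, Exp160, Exp208 and Exp211. It summed to 586 and 539 CPM in AGTuC and to 715 to 1400 CPM in the other batches. Among the neural markers Sox1 (−3.85 ± 0.52, 74.5 and 71.5 CPM in AGTuC) and Tubb3 (−2.53 ± 0.48) were lower on the log2 scale. Map2 (1.59 ± 0.39) and Zbtb16 (4.22 ± 0.67) were higher. Pax6 and Dcx, also called higher, had 1 and 0 AGTuC reads and entered the test only through scGRO–seq. For Pax6 the pooled ratio of CPM was 74.9 (13.2 to 2978), and Dcx was at least 11.9-fold above the floor. Only 2 of the 2-cell-like markers could be tested, both at 0 in AGTuC, so that their direction was fixed by the filter, and neither was called without AGTuC 2, with a summed list level of 3.93 to 49 CPM in the batches. Nuclear long non-coding RNAs had 14 higher and 2 lower of 25 (median 2.15, or 1.68 at the floor), 8 higher without AGTuC 2 and 9 without reads on small RNA genes. Olfactory receptor genes, which ES cells are not known to use, could be tested in 15 of 155 cases, all at 0 in AGTuC, so that they could only come out higher. Of these 12 were called, and 0 without AGTuC 2 or with AGTuC thinned, and the list had a summed level of 10.4 to 115 CPM against 0.931 and 7.19 CPM.

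The long non-coding RNAs of the Meg3 locus and genes of the sex chromosomes, looked at after their values were seen, separated batches as well as assays. Meg3, Rian and Mirg together had 0 reads in both AGTuC libraries, 6 in Exp156 and 22 in Exp160, and 244 to 4194 reads (861 to 3912 CPM) in the other 8 batches. The inAGTuC libraries had 151 to 2819 such reads. Uty, Eif2s3y and Ddx3y of the Y chromosome together had 0 and 2 reads in AGTuC, 0 in Exp156, 5 in Exp160 and 17 to 960 in the others. A count of 0 allows up to 2.79 and 1.35 CPM in the AGTuC libraries and up to 15.5 CPM in Exp156. Exp156 and Exp160 thus lay nearer to AGTuC than to the other batches at both. Whether these libraries came from another stock or clone of V6.5 than the later batches is not given in the labels. Culture and assay thus cannot be told apart at this locus, on the sex chromosomes or for other genes.

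Chromosome 8 and the X chromosome, picked from 20 chromosomes after their values were seen, differed in the same order. Chromosomes 1, 6 and 14 went in a like order. Chromosome 14 had 0.24 and 0.26 in AGTuC, 0.28 in Exp156, 0.04 in Exp160 and −0.35 to 0.01 in the others. Chromosome 6 had −0.28 and −0.32 in AGTuC, −0.30 in Exp156, −0.09 in Exp160 and −0.03 to 0.27 in the others. Others such as chromosome 10 did not (−0.03 and −0.04 in AGTuC, −0.06 to 0.07 in the batches). Over 426 genes of chromosome 8 and 197 of the X chromosome with bodies of 10 to 200 kb and a mean of at least 20 CPM, the median log2 level against the mean of the 12 replicates was 0.35 and 0.32 for chromosome 8 in AGTuC, 0.30 in Exp156 and 0.23 in Exp160, and −0.41 to 0.05 in the other batches. For the X chromosome it was −0.50 and −0.48 in AGTuC, −0.28 in Exp156, −0.19 in Exp160 and 0.02 to 0.40 in the others. In the calls, chromosome 8 had 209 higher and 389 lower of 1001 genes, and the X chromosome 235 higher and 43 lower of 650, against 26.6% higher and 21.4% lower over all genes. Without AGTuC 2 these were 57 and 264, and 63 and 21. The 9 genes of the Y chromosome, 7 of them at 0 in AGTuC, passed the filter only through scGRO–seq, so that they could only come out higher. All 9 were called, and 2 without AGTuC 2. The part of these differences in the calls was not tested beyond leaving out Exp156 and Exp160, which gave 4961 higher and 4422 lower genes.

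**Figure D5:**
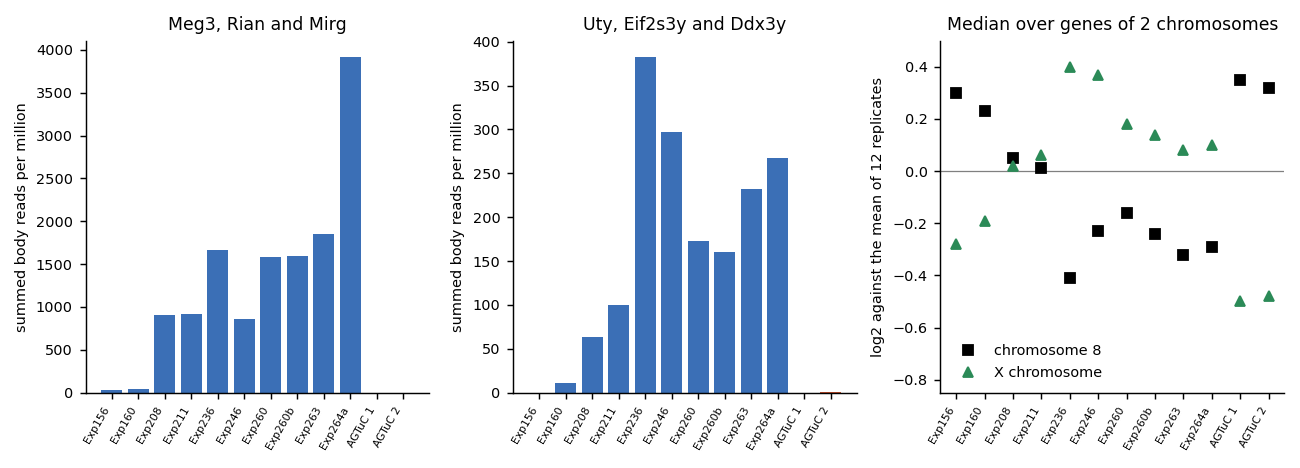
The left and middle panels give the summed body CPM of Meg3, Rian and Mirg and of the Y-linked Uty, Eif2s3y and Ddx3y in each scGRO–seq batch (blue) and AGTuC library (orange). The right panel gives the median log2 level of the genes of chromosome 8 (black squares) and the X chromosome (green triangles) against the mean of the 12 replicates. AGTuC has 0 reads of the Meg3 locus, and Exp156 and Exp160 lie near it in the left and middle panels and between it and the other batches in the right panel.

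Of the 12 measures compared per replicate, none passed after adjustment, where the smallest p that 66 splits allow is 0.0152. The percent of start and body reads at the start, the percent in the first 5 kb and the mean GC around the read end (49.2% and 48.9% in AGTuC, 44.2 to 47.3% in the batches) each gave that p and 0.0606 after adjustment, with all batches below bulk. Antisense reads made up 15.3% and 15.6% of the reads in gene spans in AGTuC and 15.4 to 34.7% in the batches with a median of 30.9% (p = 0.0303, adjusted p = 0.0727, exact permutation test), above both bulk libraries in 9 of 10 batches. With reads of 25 or more bases the difference was 5.87 percentage points in place of 12.9 (adjusted p = 0.418, exact permutation test). The 100 most-read genes held 8.41% and 8.25% of the body counts in AGTuC and 11.3 to 23% in the batches (exact permutation p = 0.0455, adjusted p = 0.0909). With each position and strand counted one time per library the difference was 1.68 percentage points in place of 7.66. The share with a mapping quality under 10 and the shares of A, C, G and U at the RNA end did not pass at an unadjusted p under 0.05.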

How the data were processed

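The authors deposited 1 list of aligned reads per library, each read with its barcode, its molecular identifier and a mapping quality score. Per the submitters' processing notes, cutadapt, Bowtie2 and UMI-tools were used, with mm10 as genome build, and their versions are not given in the sources used here. Each read was placed at its RNA 3′ end, on the strand opposite to the listed one, and counted in RefSeq gene bodies (GRCm38, 500 bp cut at each end, 22526 of 24328 genes). Molecules found in more than 1 library were left out. Counts were summed per batch, scaled to body reads, kept at a mean of at least 1 CPM and tested with limma 3.58.1 (voom, R 4.3.3), in place of a count model since no deposited column holds counts. Library measures got an exact permutation test (two-sided). On simulated data 3.28% of 2-fold, 47.4% of 4-fold and 85.7% of 8-fold changes were called, and 13 of 19144 unchanged genes. A 2-fold change lies at the limit for a call. The simulation gave every gene a dispersion of 0.1 and held no differences between batches. Some genes spread more between the real batches, such as Rian with a standard deviation of 1007 CPM on a mean of 1063 CPM. These rates thus need not hold for the real data. Named genes were the 10 with the largest change in each direction (called, no overlap, mean of at least 20 CPM), all pluripotency factors, and in each other list the 2 most-read members and up to 2 with the largest called change each way. The list of mitochondrial genome genes held no gene of this gene set. Members and lists were chosen with earlier results of these data known, and 5 of the 31 alternatives were chosen after seeing the data. One pluripotency factor is counted in its list and is not reported here by itself.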

Additional observations from a re-analysis of the deposited data

Results flagged for a closer look

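Of 163 values examined over the 10 batches, 17 had a batch at the end of the range far from its nearest neighbour, where chance gives about 1 in 20. Exp156 was the lowest of 10 for 9 of them, with 5.18 CPM for Sorcs3, 15.5 for Spon1, 10.4 for Ldb2, 5.18 for Zfp804b and 0.0 CPM for Plac1, Pax6, Wt1, Fosl2 and Slc7a11, and the highest for the proteasome subunit gene Psmb5 (31.1 CPM). Exp156 is also the batch with the fewest body reads, 193051, and with the lowest antisense share, 15.4%. Exp260b was highest for Supt5 (3326 CPM), and Exp264a for the ATP synthase gene Atp5b (1428 CPM) and for the percent of reads at the gene start (5.0%). Exp263 was lowest for Mki67 (139 CPM) and Actg1 (2.45 CPM), Exp260 for 9330020H09Rik (0.0 CPM) and Exp211 for Actn4 (180.0 CPM).

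Reads ending in ACAGG were also found in libraries that the comparison does not use, above the 0.0196% and 0.0278% of AGTuC. They made up 4.96% of the reads of the fourth inAGTuC library, 4.75% of batch Exp230, 3.06% of Exp234, 33.5% of Exp256, 21.2% of Exp261 and 29.1% of Exp263b.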

How the results depend on the processing

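For the named genes that were called, the call held in 3533 of 3771 refits and was lost in 235, most often without AGTuC 2 (37 genes), with AGTuC thinned to the median depth of the batches (27) and with limma on log2(CPM + 1) (24). Where a cause is not part of the setting itself, the cause was not tested. Higher genes numbered 2971 at a mean of 5 CPM or more, 1921 with limma on log2(CPM + 1), 1702 with AGTuC thinned and 3248 with reads of 25 or more bases. Lower genes numbered 2408 with median-ratio size factors and 1917 with limma on log2(CPM + 1). Leaving out 1 replicate gave 1460 (without AGTuC 2) to 5542 (without Exp236) higher and 2397 (without AGTuC 2) to 4271 (without Exp156) lower genes. With a lone AGTuC library, that library is taken to vary like the batches. No gene changed direction among the calls under these settings except 5 without small RNA reads, 8 with the 2 kb cut and 294 with antisense reads subtracted.

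Some library measures passed adjustment under some settings. Passing depends on how many measures reach the smallest p that the splits allow, and on how many are compared. It need not mark a larger difference (main fit: −3.19 for the first 5 kb, −17.8 for the start). Without 1 of the AGTuC libraries too few splits remain for any measure to pass. The differences that passed without small RNA reads (scGRO–seq minus AGTuC, percentage points) were −3.20, 13.6, −17.8 and −3.06 in the first 5 kb, antisense share, start share and GC. When each position counted one time these were −2.78, 13, −13.3 and −2.96, with 2.10 for small RNA genes. With reads of 25 or more bases the first 5 kb, small RNA, start and GC differences were −2.90, 7.34, −17.7 and −3.61 and passed, while the antisense difference was 5.87 and did not, and with all batches the first 5 kb and start differences −3.22 and −17.7. Without Exp156 and Exp160 the first 5 kb, small RNA, antisense, start and GC differences were −3.27, 4.80, 14.5, −17.9 and −3.34, and that of C at the RNA end −12.8. Leaving out 1 replicate gave −3.26 to −3.14, 4.93 to 6.07, 12.2 to 14.3, −18.7 to −17.0 and −3.30 to −2.96 for the same 5, which passed without Exp156. The exon share was higher in scGRO–seq by 1.27 with all deposited reads, 0.672 with each position counted one time and 0.200 with reads of 25 or more bases.

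Single genes changed sign as follows on the log2 scale. With each position counted one time Krt8 was −0.05, Ncl −0.09, Supt5 −0.36, Psmd1 −0.10, Nr0b1 0.02 and Jarid2 0.00. With reads of 25 or more bases Krt8 was −0.67, Supt5 −0.53, Nr0b1 0.14, Top2a 0.23 and Jarid2 0.14. Without small RNA reads Hspa8 was −0.60, Ncl −0.57, Gnl3 −0.80 and Psmd1 −0.16. With median-ratio size factors Nr0b1 was 0.22, Top2a 0.31, Actn1 0.16, Jarid2 0.24 and Psmb7 0.01. With antisense reads subtracted Lama1 was −0.68, Lmx1b −0.41 and Top2a 0.22. With the 2 kb cut Nr0b1 was 0.53 and Rpl17 −2.27. With all deposited reads Top2a was 0.17 and Jarid2 0.08, with all batches Dppa4 −0.22 and Psmd1 −0.06, and with AGTuC thinned and limma on log2(CPM + 1) Dppa3 −0.44 and −0.05. Without ACAGG ends Krt8 was −0.26, at mapping quality 10 or more Psmd1 −0.13, and without Exp156 and Exp160 Nr0b1 0.02 and Psmd1 −0.05. Leaving out 1 replicate gave −0.07 (without AGTuC 2) to 0.39 for Dppa4, −0.24 (without Exp260b) to 1.26 for Krt8, −0.06 (without Exp260b) to 0.69 for Supt5 and −0.22 to 0.07 (without AGTuC 2) for Top2a. No paired analysis was possible because the labels give no replicate numbers shared between the assays. Depth ran from 193051 to 2512551 body reads in the batches, so 1 read of the shallowest is worth more than 5 CPM.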
